A study of Homo sapiens with 17 samples.

Results

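Of 48 listed DNA repair and replication stress genes, chosen by name from the Fanconi anemia pathway, homologous recombination, damage signalling, end joining and fork maintenance, 47 had a row among the 9699 protein-coding transcripts analysed, and DNA2 was not analysed here. They were followed by RNA-Seq, which measures transcript levels, and by Ribo-Seq, which sequences the mRNA fragments protected by ribosomes, in BJ cells, a line of human foreskin fibroblasts immortalized with telomerase (hTERT). Proliferating cells grew in 10% serum, and quiescent cells were deprived of serum. Pre-senescent and senescent cells expressed hTERT and a RASG12V that tamoxifen switches on, with 4-OHT-Tamoxifen present for 5 days in the former and 14 days in the latter. Transformed cells expressed hTERT and SV40 small T, carried stable knockdowns (KD), that of p16INK4A among them, and received RASG12V from the retroviral vector pBabe-puro. By label, RASG12V was thus present in the pre-senescent, senescent and transformed groups, while knockdowns and small T were present in the transformed group alone. Those labels do not say which RAS gene was used. The 17 libraries were reduced to 12 columns, 6 for each assay, in FPKM, which scales fragments by transcript length and library size.

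These genes keep the genome intact while it is copied. The Fanconi proteins, which meet at the ubiquitinated FANCD2 and FANCI pair, unlink DNA strands joined by crosslinks, and BRCA1, BRCA2 and their partners prepare resected ends and stalled forks for strand exchange. ATR and CHEK1 signal stalled replication, with CLSPN, TIMELESS and TIPIN travelling with the fork, whereas ATM responds to broken ends and the Ku proteins XRCC5 and XRCC6 hold such ends for direct joining. Many of the recombination and fork genes are transcribed mainly in S phase, under E2F factors, whereas end joining works throughout the cell cycle. Oncogenic RAS is known to cause replication stress before it arrests fibroblasts.

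The columns came from 2 runs. Run 1 gave a proliferating, a quiescent and a pre-senescent column, and run 2 gave a second proliferating column, the senescent and the transformed one. Each condition was therefore set against the proliferating column of its own run, as a log2 ratio of FPKM, and a gene was called lower or higher at a 2-fold change. Run 1 proliferating and quiescent columns and its pre-senescent RNA column combine 2 replicates each, and the others hold 1 library, so no column has a replicate beside it and no test of a condition was possible. The gap between the 2 proliferating columns, which includes the run, was the only repeat of a condition. The 2 Ribo-Seq libraries titled as senescent and as run 2 proliferating carry each other's condition text in the labels, and they were assigned by title. By title, MKI67, a marker of cycling cells, stood at 1.00 FPKM in the senescent column of both assays and at 43.02 in the run 2 proliferating Ribo-Seq column. CDKN1A, which encodes the cell cycle inhibitor p21, stood at 548 FPKM in the senescent Ribo-Seq column and at 223 in the proliferating one.

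CDKN2A, which has 1 row for the transcripts of p16INK4A and of the other protein from that locus, had an RNA level of 12.64 FPKM in the transformed column against 6.75 in its control, in the direction opposite to the knockdown, and a Ribo-Seq level of 5.51 against 8.92. The columns are therefore named below by their label, "labelled transformed". HRAS RNA was at 2415 and 1284 FPKM in the run 1 and run 2 proliferating columns, at 1254 in quiescence and at 2102 in pre-senescence. It was at 2087 in the senescent column and at 312 in the column labelled transformed, below its control. Whether the proliferating and quiescent cells also carried the inducible RASG12V was not tested. All 8 fibroblast markers had a row, and their summed RNA level lay between 4992 and 7309 FPKM, with VIM the largest part in every column. Some other fibroblast markers were lower in the senescent column than in the run 2 control. COL1A1 RNA went from 1328 to 51.57 FPKM, LUM from 154.57 to 20.57 and PDGFRB from 48.45 to 4.49. LUM was lower still in pre-senescence (5.38 FPKM) and in the column labelled transformed (13.26), and stood at 33.55 in run 1 proliferation. The part of these markers in the fall of the repair genes was not tested. Of the 5 epithelial markers 3 had a row, with sums between 105 and 313 FPKM made up mostly of KRT18, and of the 4 leukocyte markers CD14 and CD68 had one, with sums between 39.3 and 133 FPKM. None of the 4 endothelial markers, and neither EPCAM, CDH1, PTPRC nor CD3E, was among the rows. The run 2 proliferating column stood apart in KRT19, at 39.76 FPKM in RNA against 1.00 in run 1, and in COL1A1, at 1328 against 371 FPKM. Whether these differences had a part in the ratios taken against that column was not tested, and ratios against the run 1 column are given beside the main result.

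In proliferating cells the repair genes covered a wide range of levels. Their median RNA level was 13.6 FPKM in run 1 and 8.64 FPKM in run 2, beside 13.62 and 13.06 FPKM for all genes. XRCC6, the Ku70 subunit that binds broken ends, was the highest in RNA with 249 and 163 FPKM, followed in run 1 by PCNA, the sliding clamp of replication, with 164.6 and 113.94 FPKM. At the low end of run 2 stood FANCM, the translocase that anchors the Fanconi core complex on DNA, with 2.45 FPKM, and BRCA2, a mediator of recombination, with 2.48 FPKM. Between the proliferating columns 4 of 47 members were lower in RNA in run 2 by 2-fold or more, namely MDC1, XRCC3, RAD54L and TIPIN, where 3.05% of all genes were. In Ribo-Seq XRCC3 and LIG1 were lower among 44 members, where 8.3% of genes were, and RPA3 was higher, with 54.88 against 13.58 FPKM, where 10.4% were. The median ratio of run 2 to run 1 was -0.37 in RNA and -0.28 in Ribo-Seq, on the log2 scale, so that a control of the other run shifts all ratios of these genes.

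**Figure D1:**
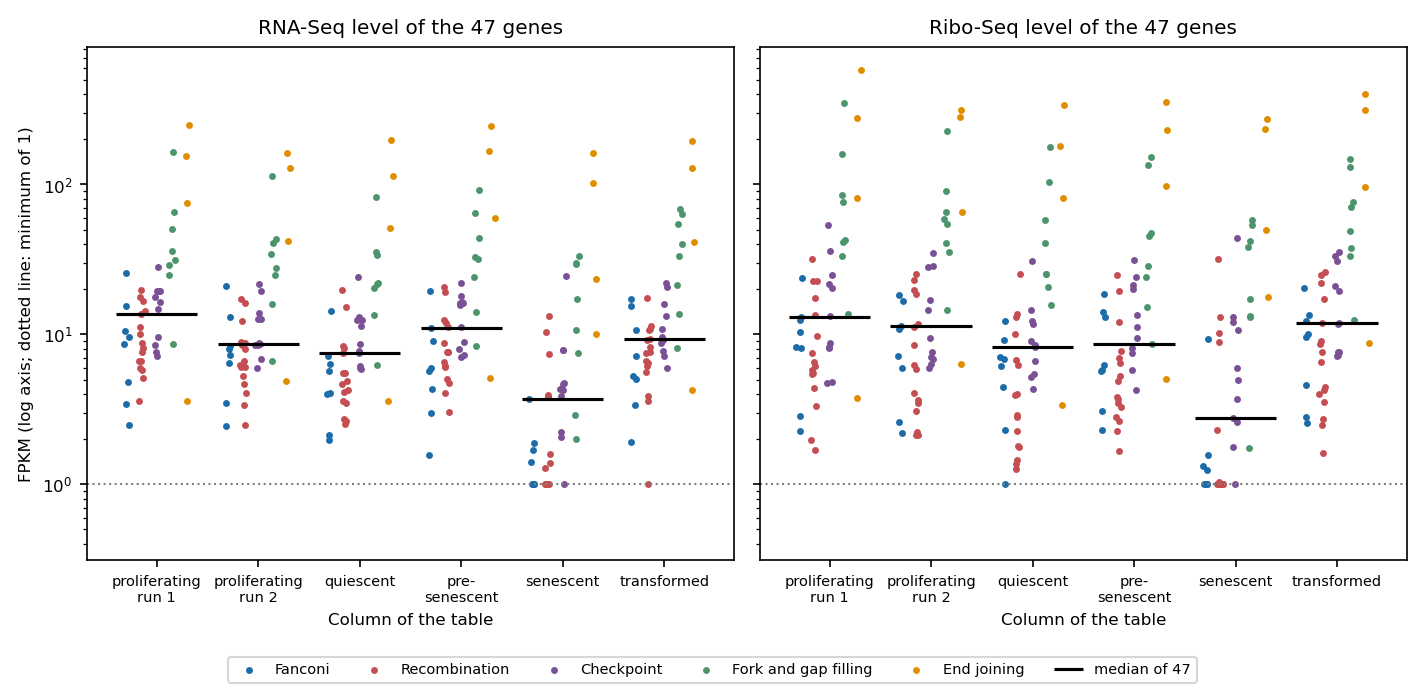
FPKM (log axis) of the 47 genes in the 6 RNA-Seq columns (left) and the 6 Ribo-Seq columns (right). Each point is a gene, coloured by role, the black bar is the median of the 47 genes and the dotted line is the minimum of 1 FPKM in the table. The senescent column has the lowest median in both assays, 3.70 FPKM in RNA and 2.79 FPKM in Ribo-Seq, with 13 and 15 genes at the minimum.

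Senescence brought the largest fall of these genes among the 4 comparisons with proliferation. In RNA 30 of 47 members were lower by 2-fold or more and 1, LIG4, was higher, where 13.2% of the genes tested were lower and 6.94% higher. The median member was 2.88-fold lower (log2 ratio -1.53), while the median of all genes was -0.01. In Ribo-Seq 28 of 44 members were lower and LIG4 again higher, where 17% and 11.1% of genes were, and the median was 2.68-fold lower (log2 ratio -1.42). The senescent column was the lowest of the 6 RNA columns for 39 of 47 members, which held for 33.9% of all genes, and the lowest of the 6 Ribo-Seq columns for 29 of 44 members, against 29.8%. It lay 2-fold or more below both proliferating columns for 30 of 47 members in RNA, against 10.5% of genes, and for 27 of 44 in Ribo-Seq, against 12.7%. Against the run 1 proliferating column 33 members were lower in RNA, against 17.9% of genes, and 29 in Ribo-Seq, against 23.7%. A call by local SD, the spread of the ratios of genes of like level, left 19 members lower in RNA, against 6.12% of genes, and 15 in Ribo-Seq, against 5.76%.

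The lists of the 2 assays shared 27 genes, which is 90.0% of the RNA list and 96.4% of the Ribo-Seq list. This overlap was not computed over all genes, so it cannot be called particular to the members. FANCM and BRCA2 were on the RNA list alone and failed the level filter of Ribo-Seq, MRE11A was 1.82-fold lower in Ribo-Seq, and ATRIP was on the Ribo-Seq list alone with a 1.96-fold lower RNA level. The authors set values under 1 FPKM to 1, and the senescent column held 13 of the 47 members at that floor in RNA and 15 in Ribo-Seq, so that their falls are lower bounds. The repair genes together made up 0.135% of the summed RNA FPKM of senescent cells and 0.258% of that of their control. MKI67 moved with them, at 43.97 FPKM in the control and 1.00 in senescence, and its part in the result was not tested. In bulk samples of this kind fewer cells in S phase and less RNA in each cell cannot be told apart.

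**Figure D2:**
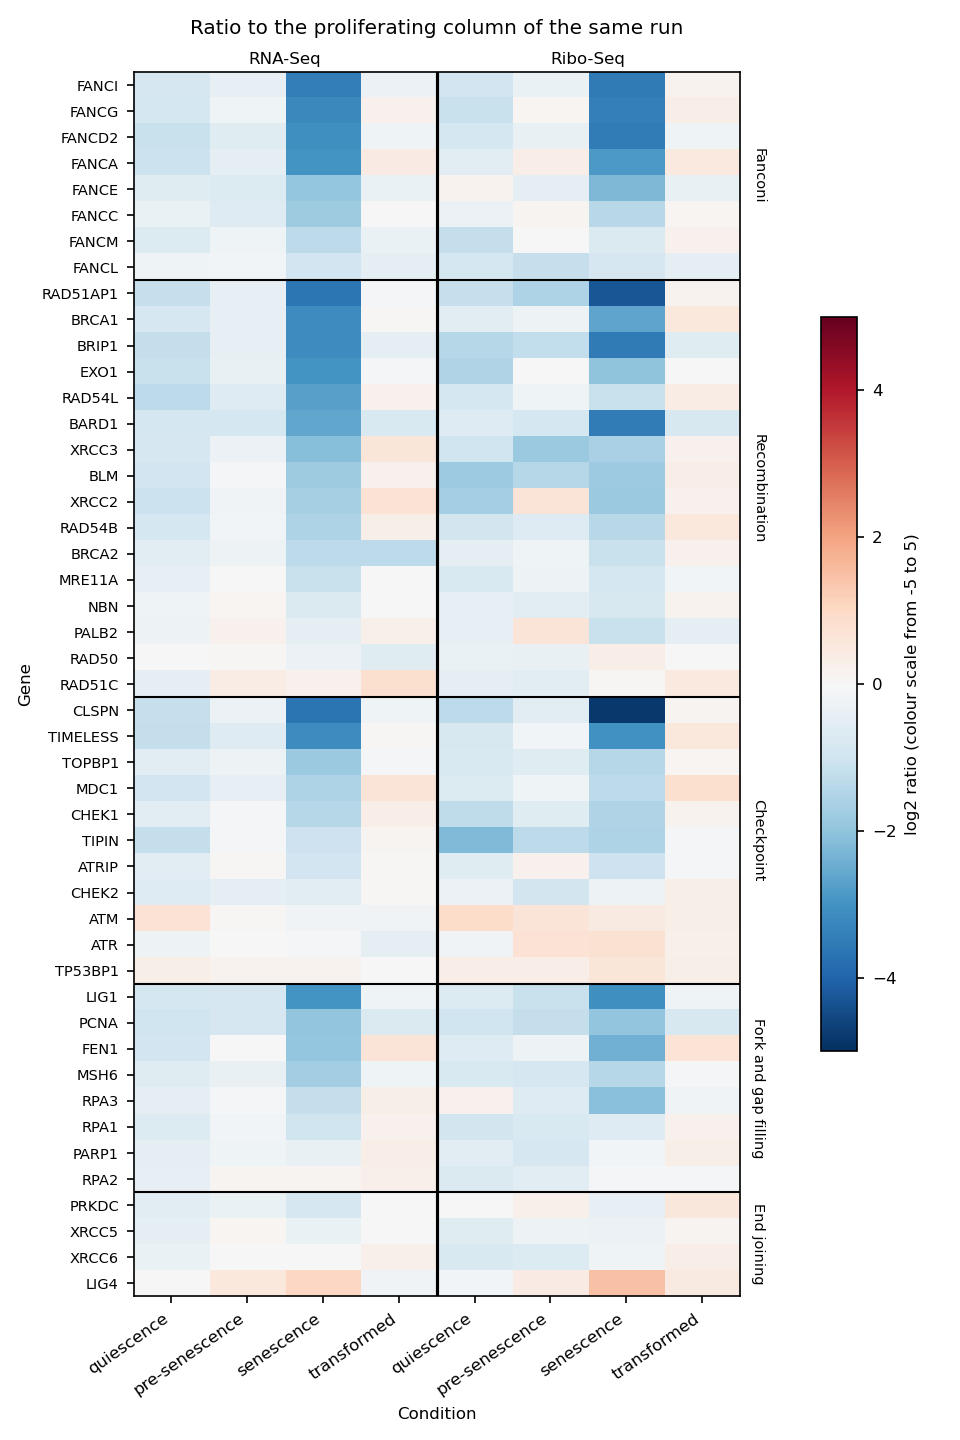
Log2 ratio of each of the 47 genes (rows, grouped by role and ordered by the RNA ratio in senescence) to the proliferating column of the same run, in RNA-Seq (left 4 columns) and Ribo-Seq (right 4 columns). Blue is lower and red is higher than proliferation. The senescence columns hold the darkest blue, down to -3.66 for CLSPN in RNA and -4.82 in Ribo-Seq, and the end joining genes at the bottom stay pale or turn red.

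The promoters of these genes were searched because so many of them were low together. RefSeq windows from 250 bases before to 50 bases after each start (GRCh38.p14) were matched for 40 of the 47 members. An E2F-type word (TTTCCCGC, TTTGGCGC, TTTCGCGC or TTTGCCGC on either strand) was present in the windows of 11 of 27 matched members that were lower in senescence, or 40.7%. It was present in 1 of 13 other matched members (XRCC6), in 118 of all 982 matched genes lower in senescence, members included, and in 7.18% of all matched genes of the table. The 11 members were FANCA, FANCC, FANCD2, EXO1, MSH6, TOPBP1, CLSPN, TIPIN, XRCC2, LIG1 and PCNA. The word CCAAT was found in 16 of the 27 and 8 of the 13, and in 44.0% of all genes, and the CHR word TTTGAA in 3 of the 27 and 1 of the 13, and in 13.6% of all genes. A word is a description of the letters in the window and not a site shown to be bound. A stretch of 70 bases from 5 of these windows shows the E2F-type words in capitals, 5′ to 3′ on the strand of the gene, each gene lying on the minus strand and each stretch ending before the start. CCAAT words, as in PCNA, are left in lower case. In FANCA and PCNA the capitals are the word read on the opposite strand, and in TIPIN, at an alternate start, overlapping words on both strands form a palindrome.
FANCA, chr16:89816780-89816849: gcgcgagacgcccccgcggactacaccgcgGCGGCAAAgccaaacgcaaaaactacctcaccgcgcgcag
FANCC, chr9:95317716-95317785: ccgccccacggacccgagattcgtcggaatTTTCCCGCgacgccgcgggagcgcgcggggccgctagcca
TIPIN, chr15:66356708-66356777: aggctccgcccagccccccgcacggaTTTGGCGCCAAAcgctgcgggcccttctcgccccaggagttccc
LIG1, chr19:48170419-48170488: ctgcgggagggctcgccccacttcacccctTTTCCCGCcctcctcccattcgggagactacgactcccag
PCNA, chr20:5126642-5126711: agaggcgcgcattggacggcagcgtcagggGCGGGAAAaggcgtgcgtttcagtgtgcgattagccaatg

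Among the Fanconi genes 7 of 8 were lower in senescence in RNA, with a median log2 ratio of -2.46, and 6 of 7 in Ribo-Seq, with a median of -2.85. FANCI, the partner of FANCD2, had RNA levels of 25.78 and 21.14 FPKM in the run 1 and run 2 proliferating columns, 14.39 in quiescence, 19.48 in pre-senescence, 1.90 in senescence and 17.15 in the column labelled transformed. Senescent cells thus stood alone, 11.1-fold below their control in RNA and 11.6-fold below in Ribo-Seq. FANCD2, which is ubiquitinated when a crosslink is met, went from 8.41 to 1.00 FPKM, at least 8.41-fold lower. Of the core complex that carries out this ubiquitination, FANCA fell at least 8.00-fold in RNA, FANCG fell 9.31-fold, FANCE fell 3.78-fold and FANCC at least 3.47-fold. FANCM went from 2.45 FPKM to the floor. FANCL, the subunit with the ubiquitin ligase activity, was the gene closest to its control in RNA, with 7.26 FPKM in the control and 3.70 in senescence in RNA, and 16.68 and 9.28 in Ribo-Seq, short of the 2-fold limit in both.

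In homologous recombination and end resection 12 of 16 members were lower in RNA (median log2 ratio -1.71) and 10 of 14 in Ribo-Seq (median -1.71). RAD51AP1, which stimulates strand invasion, had RNA levels of 16.58 and 12.25 FPKM in proliferation, 7.51 in quiescence, 12.55 in pre-senescence, 1.00 in senescence and 11.37 in the column labelled transformed. Its fall was at least 12.3-fold in RNA and at least 19.6-fold in Ribo-Seq. BRCA1, the ubiquitin ligase that promotes resection and recruits PALB2, showed 8.72, 8.90, 4.86, 6.57, 1.00 and 9.39 FPKM in the same order, so that the value in senescence alone was at the floor. Its partner BARD1 was at least 6.04-fold lower in RNA and at least 11.3-fold lower in Ribo-Seq, and the helicase BRIP1 at least 8.79-fold and 11.7-fold. BRCA2 went from 2.48 FPKM in RNA to the floor.

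Among the remodelling factors RAD54L fell at least 6.60-fold in RNA and RAD54B fell 2.92-fold. XRCC2 and XRCC3, which act in strand exchange, were 3.14-fold and 4.39-fold lower, whereas RAD51C, which forms a complex with XRCC3, was at 6.28 FPKM in the control and 7.36 in senescence. The helicase BLM was at least 3.40-fold lower and the exonuclease EXO1, which resects ends over long stretches, at least 7.95-fold. PALB2, which bridges BRCA1 and BRCA2, had 5.25 FPKM in the control and 3.82 in senescence. The complex of RAD50, MRE11A and NBN, which first grips a broken end, moved little by comparison. In RNA, RAD50 had 16.26 FPKM in the control and 13.30 in senescence, NBN had 17.19 and 10.41, and MRE11A, its nuclease, fell 2.15-fold from 8.49 to 3.94 FPKM.

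Of the checkpoint genes 6 of 11 were lower in RNA (median log2 ratio -1.02) and 7 of 11 in Ribo-Seq (median -1.30). CLSPN, which brings CHEK1 to ATR at the fork, had the lowest RNA ratio of the 47 members, with 19.46 and 12.61 FPKM in proliferation, 8.64 in quiescence, 16.10 in pre-senescence, 1.00 in senescence and 10.81 in the column labelled transformed. As with the 12 other members at the floor in senescence its fall is a bound, at least 12.6-fold, so the order among them follows their control levels. Its Ribo-Seq level fell from 28.28 to 1.00 FPKM, at least 28.3-fold. TIMELESS, of the fork protection complex, fell 8.76-fold in RNA, and its partner TIPIN fell 2.03-fold. TOPBP1, the activator of ATR, was 3.57-fold lower, the kinase CHEK1 2.71-fold and MDC1, a scaffold on damaged chromatin, 2.88-fold.

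ATR, ATM, CHEK2 and TP53BP1 were not on either list. ATR RNA was 8.44 FPKM in the control and 7.93 in senescence, ATM RNA was 8.78 and 7.81, and CHEK2, the kinase downstream of ATM, was at 6.82 and 4.74. TP53BP1, which protects ends from resection, had RNA levels between 19.59 and 24.40 FPKM in all 6 columns, with 21.53 in the control and 24.40 in senescence. In Ribo-Seq ATR had 6.37 FPKM in the control and 10.78 in senescence, ATM 9.44 and 13.06, and TP53BP1 28.55 and 43.78, each above its control but by less than 2-fold. ATRIP, the partner of ATR, had 8.47 and 4.33 FPKM in RNA, short of 2-fold, and 7.66 and 3.73 in Ribo-Seq, past it.

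None of the 4 end joining genes was lower in senescence by 2-fold or more, where 13.2% of all genes were in RNA and 17% in Ribo-Seq. With 4 genes this count cannot be told apart from those shares. In each assay 3 of the 4 ratios lay below 0. LIG4, which seals the joined ends, was the single member that rose past 2-fold, from 4.89 to 10.07 FPKM in RNA and from 6.33 to 17.70 in Ribo-Seq. Its RNA in the other columns lay between 3.59 and 5.15 FPKM, so that the senescent value was the highest of the 6, and in Ribo-Seq too the next value, in the column labelled transformed, was 8.75 FPKM. XRCC6 had 163.20 FPKM in the control and 162.04 in senescence in RNA, and XRCC5, the Ku80 subunit, had 129.37 and 102.05. PRKDC, the kinase that Ku recruits, had 42.11 and 23.25 FPKM, short of 2-fold.

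Of the genes of the fork, gap filling and base or mismatch repair 5 of 8 were lower in RNA (median log2 ratio -1.46) and the same number in Ribo-Seq (median -1.70). LIG1, the ligase of Okazaki fragments, was 7.84-fold lower in RNA and 8.27-fold in Ribo-Seq. PCNA had 164.60 and 113.94 FPKM in proliferation, 82.30 in quiescence, 91.69 in pre-senescence, 29.34 in senescence and 68.41 in the column labelled transformed. The quiescent, pre-senescent, senescent and transformed values all lay below both proliferating ones. FEN1, the flap nuclease, was 3.83-fold lower in RNA and 5.28-fold lower in Ribo-Seq, and MSH6, the mismatch sensor, 3.34-fold and 2.67-fold. The subunits of RPA, the coat of single-stranded DNA, went apart: RPA3 RNA fell 2.26-fold, RPA1 had 34.15 FPKM in the control and 17.18 in senescence, and RPA2 had 27.70 and 30.09. PARP1, the sensor of nicks, had 43.18 FPKM in the control and 33.24 in senescence.

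The fall in RNA and that in Ribo-Seq were of like size. Over the 30 members with no value at the floor Pearson's r between the log2 ratios was 0.95, a description across genes that share the same libraries, and 26 of the 30 had the same sign. Neither value was computed over all genes. No one of these 30 changed 2-fold or more in translational efficiency (TE, the Ribo-Seq level per unit of RNA), and their median TE change was 0.11. Of all genes with no value at the floor 5.9% were lower in TE by that much, and 220 of 8577 were higher. The 4 genes with opposite signs were ATR, ATM, RAD50 and RPA2.

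**Figure D3:**
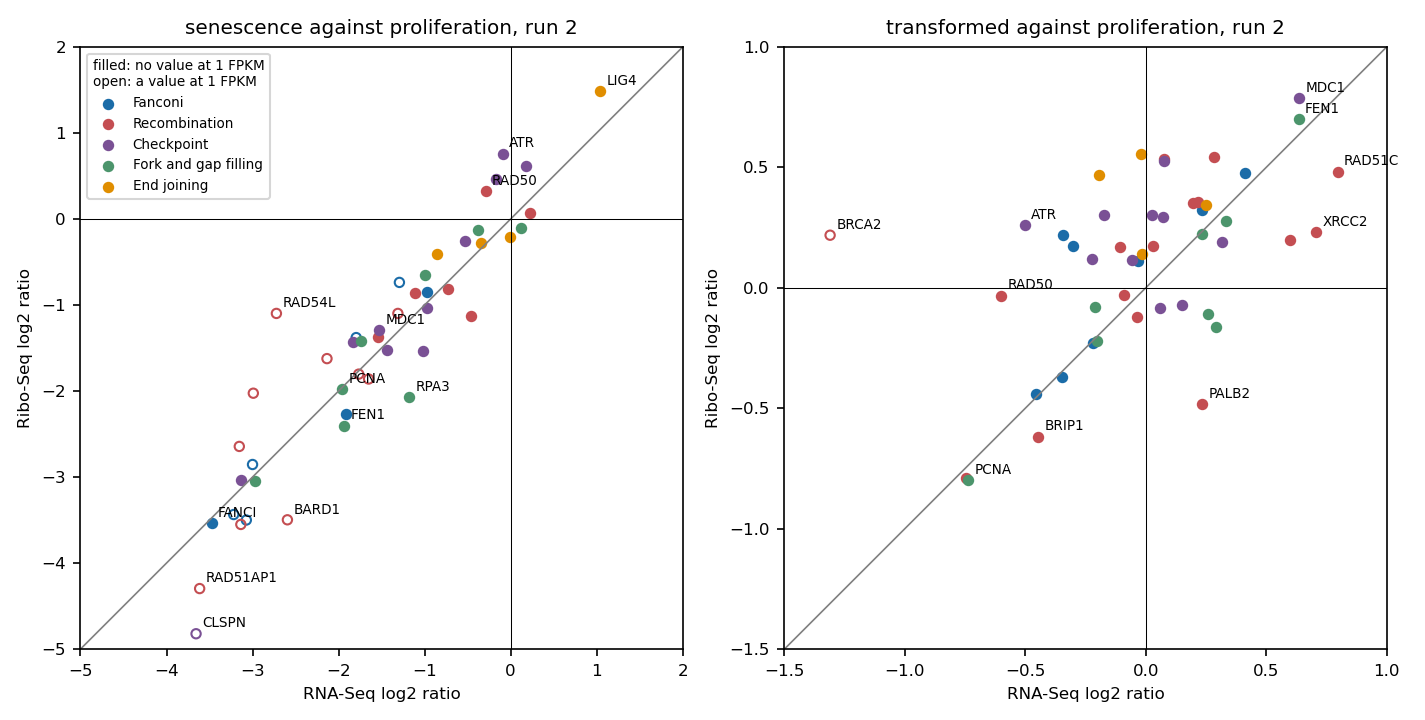
RNA-Seq log2 ratio (horizontal) against Ribo-Seq log2 ratio (vertical) of the 47 genes in senescence (left) and in the cells labelled transformed (right), each against the run 2 proliferating column, on axes of different range. Open circles have a value at the floor of 1 FPKM, and the grey line marks equal ratios. In senescence the genes spread along the line from CLSPN to LIG4, and in the transformed panel all but BRCA2 lie within 2-fold on both axes.

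Quiescence lowered fewer of these genes, and by less. In RNA 11 of 47 members were lower and none higher, where 2.43% of genes were lower and 4% higher, and the median log2 ratio was -0.63 (1.55-fold lower) beside -0.01 for all genes. The 11 were FANCA, FANCD2, BRIP1, RAD51AP1, RAD54L, EXO1, CLSPN, TIPIN, TIMELESS, XRCC2 and PCNA, and their falls lay between 2.00-fold for PCNA and 2.45-fold for RAD54L. All 11 were also on the RNA list of senescence, of which they made up 36.7%, and over all genes 75% of the quiescence list and 13.8% of the senescence list were shared. The senescence ratio was below the quiescence ratio for 38 of the 47 members and for 51.9% of genes. The quiescent column lay below both proliferating columns for 38 of 47 members in RNA, where it did for 28.7% of genes, but 2-fold or more below both for only 2 members, where 0.728% of genes were. Against the run 2 control the count of lower members was 3, where 3.94% of genes were lower.

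By role the lower counts in quiescence were 2 of 8 Fanconi genes, 5 of 16 recombination genes, 3 of 11 checkpoint genes, 1 of 8 fork genes and none of 4 end joining genes. CLSPN RNA went from 19.46 to 8.64 FPKM and TIMELESS RNA from 28.05 to 12.43, values which for both genes lay well above those of senescence. Within the Fanconi group the ratio ranged from -1.11 for FANCD2 to -0.23 for FANCL, and within recombination from -1.29 for RAD54L to next to 0 for RAD50, at 19.77 and 19.71 FPKM. ATM went the other way, with 7.61 FPKM in the control and 12.56 in quiescence in RNA, the highest of its 6 RNA columns, and 4.75 and 9.02 in Ribo-Seq, below the 2-fold limit in both. The end joining ratios lay between -0.56 for PRKDC and -0.01 for LIG4, and among fork genes RPA2, at -0.43, stood opposite PCNA.

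In Ribo-Seq 10 of 44 members were lower in quiescence, where 8.13% of genes were, with a median log2 ratio of -0.73. The call by local SD left 2, against 3.47% of genes. The 10 were FANCG, BRIP1, RAD51AP1, BLM, EXO1, CHEK1, CLSPN, TIPIN, XRCC2 and XRCC3. The RNA and Ribo-Seq lists shared 6 genes, 54.5% of the former and 60.0% of the latter, an overlap not computed over all genes. TIPIN had the largest fall, with 53.32 FPKM in run 1 proliferation, 35.02 in run 2, 11.69 in quiescence, 21.25 in pre-senescence, 12.09 in senescence and 33.30 in the column labelled transformed. Its quiescent value, 4.56-fold below the control, was thus the lowest of the 6. The quiescent column lay below both proliferating columns for 32 of 44 members, against 37.6% of genes. No member with its values off the floor was lower in TE by 2-fold or more, where 3.7% of genes were, although TIPIN was only just short of that limit.

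In pre-senescence, after 5 days of RASG12V, no member reached 2-fold in RNA in either direction. Of all genes 2% were lower, and 161 of 9203 were higher. By local SD 5 were lower, where 3.74% of genes were. The median log2 ratio was -0.21, and the largest falls were those of BARD1 (-0.89), PCNA (-0.84) and LIG1 (-0.82). The column lay below both proliferating columns for 15 of 47 members, against 26.1% of genes. The Fanconi genes ranged from -0.68 for FANCE to -0.15 for FANCL and the checkpoint genes from -0.63 for TIMELESS to 0.17 for TP53BP1. LIG4, at 3.61 FPKM in the control and 5.15 in pre-senescence, had the highest ratio of all members (0.51), and RAD51C (0.36) the highest in recombination. PRKDC (-0.33) was the lowest in end joining and RPA2 (0.14) the highest of the fork genes.

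Ribosome occupancy in pre-senescence was lower for 8 of 44 members, where 10.4% of genes were, with a median log2 ratio of -0.51. The column lay below both proliferating columns for 24 of 44, against 39.9%. The 8 were FANCL, BRIP1, RAD51AP1, BLM, TIPIN, XRCC3, LIG1 and PCNA, and none of them had reached 2-fold in RNA. RAD51AP1 went from 22.81 to 7.75 FPKM in Ribo-Seq while its RNA was at 16.58 and 12.55 FPKM. BLM went from 6.18 to 2.28 FPKM with RNA at 5.14 and 4.74, and TIPIN from 53.32 to 21.25 with RNA at 17.68 and 16.54. For XRCC3 the Ribo-Seq level was 13.56 FPKM in the run 1 control and 3.70 in pre-senescence, but it was 3.08 in the run 2 control, so that the value in pre-senescence lay between the 2 proliferating ones.

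TE in pre-senescence was lower by 2-fold or more for 4 of 44 members, RAD51AP1 (-1.16), BLM (-1.32), TIPIN (-1.23) and XRCC3 (-1.60), where it was for 8.11% of genes, a like share. The median TE change of the members was -0.30 and that of all genes -0.15. All 8 genes of the fork and of gap filling lay below 0, between -0.67 for RPA2 and -0.20 for FEN1, and 6 of the 7 Fanconi genes lay above 0, FANCL at -0.99 being the exception. Of all genes 58.9% lay below 0 and 40.9% above. Pearson's r between RNA and Ribo-Seq ratios was 0.27 across 44 members, whose RNA ratios lay between -0.89 and 0.51. In senescence r was 0.95 across 30 members, over a wider range of RNA ratios. The 2 values of r differ in genes and range and cannot be compared directly. The pre-senescent Ribo-Seq column holds 1 library, whereas its RNA column combines 2.

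**Figure D4:**
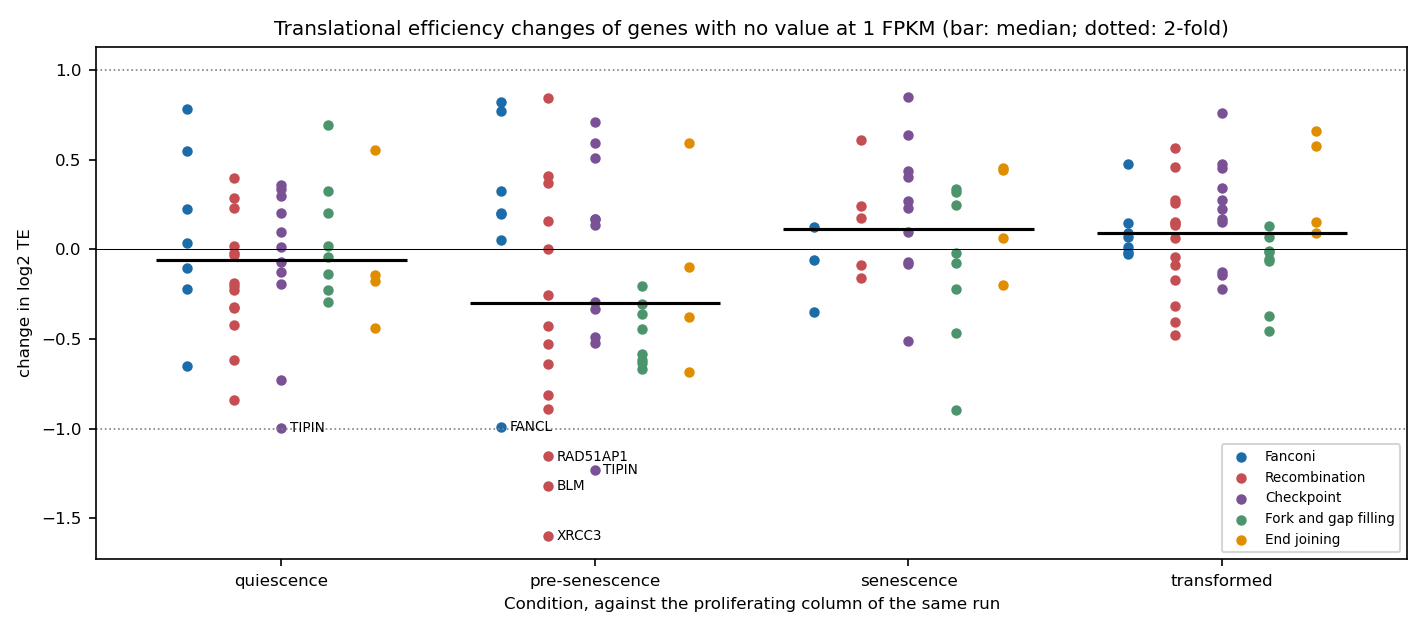
Change in log2 TE against the proliferating column of the same run, by condition, for the members with no value at the floor of 1 FPKM (44 in quiescence, pre-senescence and transformed cells, 30 in senescence). Points are genes coloured by role, bars are medians and dotted lines mark 2-fold. The pre-senescence median is the lowest, at -0.30, beside -0.15 for all genes. Members lie below the lower line only there, 4 of 44, a share like the 8.11% of all genes.

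In the cells labelled transformed the repair genes were near the proliferating level. In RNA 1 of 47 members was lower and none higher, where 5.2% and 4.49% of genes were, and the median log2 ratio was 0.03. That member was BRCA2, at 2.48 FPKM in the control and at the floor in the column labelled transformed, with Ribo-Seq levels of 2.14 and 2.49 FPKM, both of them low. In Ribo-Seq no member of 44 reached 2-fold, where 7.42% of genes were lower and 5.02% higher, and the median was 0.18. Against the run 1 control 3 members were lower in each assay, where 4.66% of genes were in RNA and 10.6% in Ribo-Seq. The column lay above both proliferating columns in RNA for 9 of 47 members, against 35.8% of genes, and below both for 19, against 28%. The other members did not lie outside the 2 proliferating columns.

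Smaller differences ran in both directions. BARD1 (-0.75), PCNA (-0.74) and RAD50 (-0.60) were the lowest after BRCA2 in RNA, and RAD51C was the highest (0.80), with 6.28 FPKM in the control and 10.91 in the column labelled transformed. The Fanconi genes ranged from -0.45 for FANCL to 0.41 for FANCA, the checkpoint genes from -0.50 for ATR to 0.64 for MDC1, the end joining genes from -0.19 for LIG4 to 0.25 for XRCC6, and the fork genes from -0.74 for PCNA to 0.63 for FEN1. The median TE change was 0.09.

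The senescent and the transformed columns were then compared directly, within run 2. In RNA 30 of 47 members were lower in senescence by 2-fold or more, LIG4 was higher, where 15.1% of genes were lower and 8.05% higher, with a median log2 ratio of -1.53. In Ribo-Seq 27 of 44 were lower, where 17.5% of genes were, and the median was -1.52. Relative to the comparison with proliferation the RNA list gained ATRIP (2.04-fold lower) and RPA1 (2.34-fold lower) and lost FANCM and BRCA2, whose transformed values were at 1.93 FPKM and at the floor. FANCG was 10.9-fold lower in RNA and at least 13.5-fold lower in Ribo-Seq, and FEN1 was 5.95-fold and 8.60-fold lower. The groups differ in the knockdowns, in small T and in the RASG12V construct by label, in HRAS level, and in MKI67, whose RNA was at 29.22 FPKM in the column labelled transformed and 1.00 in senescence, and these cannot be told apart.

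Other repair genes, from a list of 99 outside the members of which 86 had a row, are described by counts alone. In senescence 33 of the 86 were lower in RNA and 1 was higher, beside 13.2% and 6.94% of all genes, and 39 of 83 were lower and none higher in Ribo-Seq, beside 17% and 11.1%. The replicative polymerases and the clamp loader had 9 of 11 lower (median log2 ratio -2.26), further recombination genes 8 of 14 (median -1.37) and further checkpoint genes 5 of 10. Nucleotide excision repair, which removes bulky lesions and does not depend on replication, had none of 13 lower and 1 higher, base excision repair had 3 of 13 lower and translesion synthesis 3 of 9. In Ribo-Seq nucleotide excision repair had 1 of 13 lower and base excision repair 6 of 13. Among smaller groups in RNA, mismatch repair had 1 of 5 lower, end joining 1 of 3 and further Fanconi and crosslink genes 3 of 8. Large falls were those of RFC3, a subunit of the clamp loader, from 13.45 to 1.22 FPKM, and of RMI2, a partner of BLM, from 10.93 to 1.25. ERCC1, which cuts beside a bulky lesion, rose 2.87-fold in RNA, from 43.95 to 126.07 FPKM, the only gene of the list past 2-fold there, and had 26.80 and 47.22 FPKM in Ribo-Seq, short of that limit. In quiescence 11 of the 86 were lower in RNA and 1 was higher, beside 2.43% and 4% of all genes. In pre-senescence none was lower or higher, where 184 and 161 of all 9203 genes tested were. In the cells labelled transformed 1 was lower and 1 higher, beside 5.2% and 4.49% of all genes.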

How the data were processed

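RNA-Seq and Ribo-Seq libraries of 5 conditions were analysed from a single deposited table of FPKM, which the authors made by aligning reads with Bowtie to 1 Ensembl transcript per gene (hg19 in the labels), keeping transcripts with enough reads and setting FPKM below 1 to 1. RNA FPKM is per whole transcript and Ribo-Seq FPKM per coding sequence. How replicates were combined, and the reads behind each value, are not given in the sources used here. The study lists reads per library, but the read count of each gene is unknown, so no counting interval or p-value was computed. Floor values make ratios lower bounds.

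All steps used python 3.11.15, pandas 2.3.3 and numpy 2.4.6. The 2-fold call was checked on simulated data with little noise, where large changes were planted in genes of high level. Filter, floor, TE and promoter steps were not simulated. Genes with a mean of at least 2 FPKM over the 6 columns of an assay were kept (47 members in RNA and 44 in Ribo-Seq, where FANCM, BRCA2 and PALB2 did not pass). Log2 ratios were taken within a run, called at 2-fold, and set beside all genes. TE is log2 of Ribo-Seq over RNA, for genes passing in both. Alternatives were no filter, the control of the other run, log2(FPKM + 1), centring on the median gene, and 1.75 local SDs in windows of 200 genes ranked by level. Leaving out TE with a value at the floor was chosen after seeing the data.

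All members are named. In each comparison the members past 2-fold are given, and of the rest the lowest and highest of each role group. Other genes are named only as label checks or as the 3 largest falls and rises past 2-fold among other repair genes in senescence, and a label check and a fall that the rule names are not reported here. The members and lists were chosen with earlier results of these data known. Promoters come from RefSeq (GRCh38.p14), matched by symbol for 8041 of 9699 genes, and any window of a gene counted.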

Additional observations from a re-analysis of the deposited data

Results flagged for a closer look

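MDC1 and FEN1 moved in opposite directions in senescence and in the cells labelled transformed, past 1.5-fold in both assays. The RNA log2 ratio of MDC1 was 0.64 in the cells labelled transformed and -1.53 in senescence, and that of FEN1 was 0.63 and -1.94. Both comparisons share the run 2 proliferating column, and the difference was not tested. MDC1 RNA was 14.72 FPKM in run 1 proliferation and 5.93 in run 2, so that the transformed value of 9.22 FPKM lay between the proliferating columns. FEN1 RNA was 65.52 and 40.68 FPKM in proliferation and 63.15 in the column labelled transformed, also between them, while both senescent values, 2.06 and 10.62 FPKM, lay below every other column.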

How the results depend on the processing

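Of 60 alternative values 45 stayed within 1.5 times the main count or within the TE spread of 0.078 (log2), and 15 moved. The control of the other run changed lower members in RNA to 3 in quiescence, 1 in pre-senescence and 3 in the cells labelled transformed, those in Ribo-Seq to 3 in the last, and the median TE change to -0.19 in quiescence and 0.30 in the cells labelled transformed. With log2(FPKM + 1) the RNA counts were 6 in quiescence and 0 in the cells labelled transformed. Under the cut-off by local SD the RNA counts were 5 in pre-senescence, 19 in senescence and 0 in the cells labelled transformed, and the Ribo-Seq counts 2 in quiescence, 5 in pre-senescence and 15 in senescence. Centring on the median gene gave a pre-senescent median TE change of -0.15, and turned the sign of that in quiescence (0.0036). The cause of these moves was not tested. No paired analysis was possible because replicates are combined in single columns, and leaving out each replicate was not run for the same reason. With no read counts of genes in the table, low values, those of FANCC, FANCM, BRCA2 and PALB2 above all, have a precision that is unknown.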

Other observations

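Ribosome occupancy per unit of RNA differed widely among the repair genes themselves. Among members passing the filter in both assays, RAD54L (-1.63) and TOPBP1 (-1.06) had the lowest median log2 TE over the 6 columns. RPA3 had the highest median, followed by TIPIN (1.55). PALB2, which did not pass the Ribo-Seq filter, was lower still (-1.92), with Ribo-Seq over RNA between 0.23 and 0.43 in every column. Its Ribo-Seq levels lay between 1.03 and 2.63 FPKM, near the floor. RPA3 did not keep 1 level across columns of like RNA. The Ribo-Seq level of RPA3 was 13.58, 15.72 and 8.69 FPKM in the proliferating, quiescent and pre-senescent columns of run 1, and 54.88, 13.06 and 49.07 in the proliferating, senescent and transformed columns of run 2. RPA3 RNA lay between 6.22 and 8.68 FPKM in all of these but senescence, where it was 2.92. In proliferation its Ribo-Seq level over RNA was 1.56 in run 1 and 8.32 in run 2. The part of the run in this difference was not tested.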
